A study of Mus musculus with 36 samples.

Results

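The 8 genes described here encode the core enzymes that write, copy and remove methyl groups on cytosine in DNA. They are Dnmt1, Dnmt3a, Dnmt3b, Uhrf1, Tet1, Tet2, Tet3 and Tdg. They were found by gene symbol in the deposited table, and all 8 of 8 symbols were present among 36172 gene entries. Expression was measured by polyA RNA sequencing of mouse hippocampus in 36 libraries. The mice carried Cx3cr1-cre and NuTRAP, so that tamoxifen switches on a tag on the ribosomes of cells that use the Cx3cr1 promoter, which is active in microglia and related macrophages. Translating ribosome affinity purification (TRAP) pulls down RNA on the tagged ribosomes, and the input is an aliquot of the cleared homogenate taken before the pulldown. The study asked how the age at induction bears on the specificity of the model and on its use in aging.

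The inputs came from 3 groups of animals, all of the same genotype and all induced. The young early-induced group held 10 animals aged 6 months, 5 females and 5 males. The old early-induced group held 12 animals aged 22 months, 7 females and 5 males. The old late-induced group held 7 animals aged 22 months, 5 females and 2 males. The 7 TRAP libraries came from the animals of the old late-induced group, and TRAP of the other groups was not analysed here. No uninduced or young late-induced group is among these samples, so age can be compared at a fixed induction age only between the early-induced groups. Time since induction differs between those groups and between the old groups. It cannot be told apart from age in the former or from induction age in the latter. Below, the groups are called young, old early and old late.

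DNA methylation in mammals sits mostly on cytosine followed by guanine (CpG). Dnmt3a and Dnmt3b place new methyl groups, whereas Dnmt1 copies the pattern to the new strand after replication, guided by Uhrf1, which reads hemimethylated DNA. Tet1, Tet2 and Tet3 oxidise 5-methylcytosine to 5-hydroxymethylcytosine and further forms, and Tdg, a DNA glycosylase, cuts out the most oxidised forms for replacement by base excision repair. Mature neurons hold high levels of 5-hydroxymethylcytosine and of methylation outside CpG, the latter placed by Dnmt3a.

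Library totals ran from 12.9 to 20.45 M estimated counts. Expression is given as CPM, that is, counts scaled to a common library size, on 1 scale over all 36 libraries. Cx3cr1 averaged 39.9 ± 5.08 CPM in the old late inputs against 687.9 ± 134 in the TRAP libraries (SD; n = 7 each), and was higher in TRAP in 7 of 7 animals. All 15 microglia markers were higher in TRAP, with a median log2 fold change of 4.28. The libraries of the 3 groups also carry separate blocks of S numbers in their titles, so any effect tied to those numbers cannot be told apart from the group.

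In the deposited table, Dnmt1 lies at chr9:20907206-20959888 on the minus strand, Dnmt3a at chr12:3806980-3914443 on the plus strand, Dnmt3b at chr2:153649449-153687730 on the plus strand and Uhrf1 at chr17:56303337-56323486 on the plus strand. Tet1 lies at chr10:62804570-62880014, Tet2 at chr3:133463677-133544390 and Tet3 at chr6:83362374-83441678, all on the minus strand, and Tdg at chr10:82629838-82650494 on the plus strand. The table names no build; the submitters' processing notes name mm10. Against the RefSeq annotation of GRCm38.p6, 8 of 8 genes were on the same chromosome. Tdg overlaps Glt8d2 on the opposite strand, which had up to 313 counts in a library, and how strand was handled in counting is not given in the sources used here. Values of Tdg are therefore uncertain by the reads of the overlap.

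The promoters of 4 members that were lower in both old groups are shown for their CpG content. Methylation itself was not measured. Each is the 250 bases before the start site in RefSeq (GRCm38.p6), and each ends at the base before the gene's start in the deposited table. Dnmt3a has 3 start sites in RefSeq, of which the first is shown; the windows of the other 2 held 40 and 15 CpG. The Tet1 window lies 7310 bases from that gene's deposited start and is not shown. The Dnmt3a window is chr12:3806730-3806979 on the plus strand and the Tet2 window is chr3:133544391-133544640 on the minus strand. The Tet3 window is chr6:83441679-83441928 on the minus strand and the Tdg window is chr10:82629588-82629837 on the plus strand. Sequences run 5′ to 3′, and capitals mark each CpG.
Dnmt3a: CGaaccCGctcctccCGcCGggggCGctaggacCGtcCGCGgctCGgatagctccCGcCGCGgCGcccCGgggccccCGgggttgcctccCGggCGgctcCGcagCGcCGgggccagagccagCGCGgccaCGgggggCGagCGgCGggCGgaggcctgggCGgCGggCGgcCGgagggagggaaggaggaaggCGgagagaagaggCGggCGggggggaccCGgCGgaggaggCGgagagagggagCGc
Tet2: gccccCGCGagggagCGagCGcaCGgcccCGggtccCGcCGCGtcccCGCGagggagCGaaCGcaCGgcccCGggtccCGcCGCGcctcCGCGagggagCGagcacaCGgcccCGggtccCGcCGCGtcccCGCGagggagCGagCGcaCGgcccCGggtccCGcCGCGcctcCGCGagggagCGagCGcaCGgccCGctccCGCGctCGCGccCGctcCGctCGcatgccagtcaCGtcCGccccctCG
Tet3: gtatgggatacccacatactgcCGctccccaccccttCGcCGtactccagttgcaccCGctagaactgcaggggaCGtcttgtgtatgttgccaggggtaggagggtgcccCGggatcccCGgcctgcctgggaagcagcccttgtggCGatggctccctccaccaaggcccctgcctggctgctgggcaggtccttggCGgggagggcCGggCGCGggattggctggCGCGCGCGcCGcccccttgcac
Tdg: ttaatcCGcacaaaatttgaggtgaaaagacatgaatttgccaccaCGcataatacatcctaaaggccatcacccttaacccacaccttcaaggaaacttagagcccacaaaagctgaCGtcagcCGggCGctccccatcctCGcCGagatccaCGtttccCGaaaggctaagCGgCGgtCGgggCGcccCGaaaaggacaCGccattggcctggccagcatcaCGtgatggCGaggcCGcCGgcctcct
These windows held 38, 51, 17 and 19 CpG in the order shown, against a median of 6 over 32851 RefSeq windows of this length. The Tet2 window had more CpG than 99.9% of them and is built from repeats: the 16-base word acggccccgggtcccg occurs 4 times in it. Windows rich in CpG were not particular to the members that were lower with age. The Dnmt3b window held 21 CpG, the Uhrf1 windows 10 and 30, and the Dnmt1 windows 2, 7 and 26. The Tet1 window held 15. Searched on both strands, GGGCGG (a GC box) was in the Dnmt3a, Tet2 and Tet3 windows shown. It was in 10 of the 13 windows of all members and in 32.7% of all windows. The Tdg window held CACGTG (an E box, in 6.02% of all windows) and TGACGTCA (a cyclic AMP response element, in 1.55%). These matches describe the letters only.

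To compare levels between genes, CPM was divided by the length of the longest protein-coding transcript in GENCODE. Which transcripts were expressed was not tested, so the order of genes rests on these lengths. Per kilobase, Tdg was the highest in young input at 14.3 ± 0.56 CPM (SD, n = 10). Dnmt3a followed at 9.83 ± 0.60 and Dnmt1 at 8.33 ± 0.52 CPM per kilobase, with ranges that overlapped each other. Tet3 was next at 5.16 ± 0.40 and Tet2 at 3.70 ± 0.39 CPM per kilobase, each apart from its neighbours. Tet1 stood at 0.59 ± 0.08, Uhrf1 at 0.38 ± 0.20 and Dnmt3b at 0.16 ± 0.05 CPM per kilobase, with overlapping ranges. Among the Tet genes of the young hippocampus the order was thus Tet3, Tet2, Tet1. The same order of all 8 held in the old early inputs. In the old late inputs Dnmt1, at 7.97 ± 0.95, came ahead of Dnmt3a, at 7.51 ± 0.74 CPM per kilobase (SD, n = 7), with overlapping ranges. In bulk tissue, fewer cells of a type and less RNA per cell cannot be told apart.

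**Figure D1:**
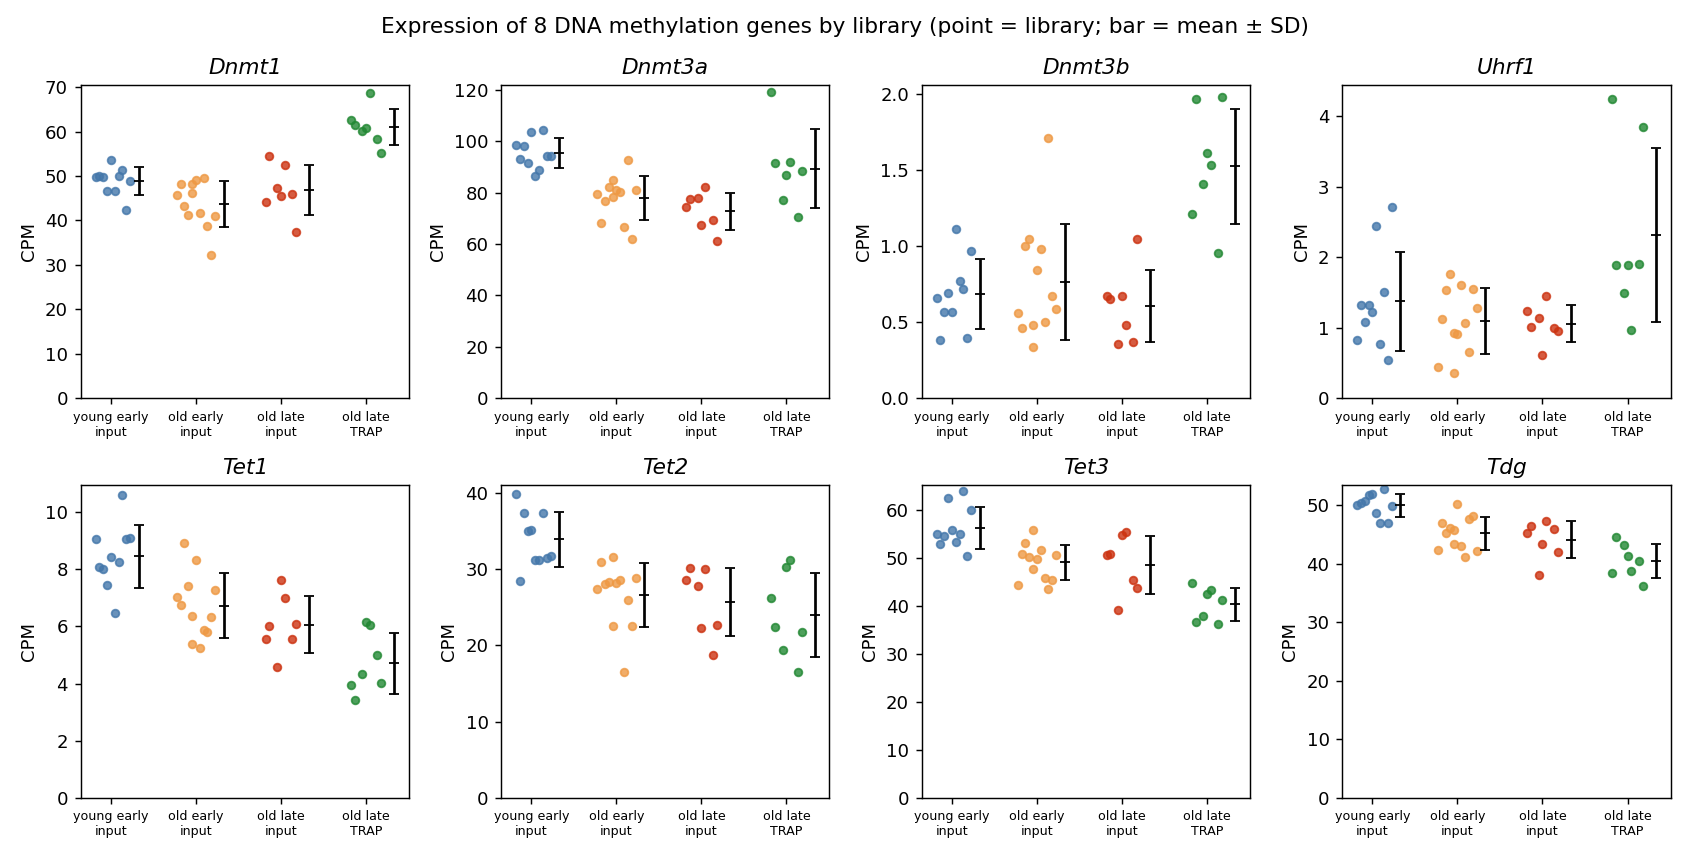
Expression of the 8 genes in each library, in CPM on vertical axes that start at 0, with points for libraries and bars for the mean ± SD of young early input (n = 10), old early input (n = 12), old late input (n = 7) and old late TRAP (n = 7). Dnmt3a is lower in both old input groups than in the young one, Dnmt1 is highest in TRAP, and Dnmt3b and Uhrf1 stay below 5 CPM in all libraries.

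The first comparison asked whether the methylation genes differed with age. Dnmt3a, Tet1, Tet2, Tet3 and Tdg were lower in old than in young hippocampus, in both old groups: they fell by 9.04% to 28.5%. Dnmt1, Dnmt3b and Uhrf1 did not pass the test in either. Old early-induced against young therefore gave 5 of 8 members called, all lower, where 25.6% of 14948 genes were called in either direction and 12.6% were lower. Old late-induced against young also gave 5 of 8, all lower, where 34.5% of genes were called and 17.5% were lower. The median log2 difference of the members was -0.24 and -0.29, against 0.01 over all genes in each comparison. The old groups were set against the same 10 young inputs, so the results are not independent of each other. The members were chosen with earlier results of these data known, so these shares do not test them as a group. Genes were called by edgeR's quasi-likelihood test, at a threshold of 0.05 on Benjamini-Hochberg adjusted p-values over all genes.

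Among the writers, Dnmt3a, the main de novo methyltransferase of adult brain, ran from 86.5 to 104.2 CPM in the young inputs with a median of 94.2. It ran from 62.1 to 92.7 CPM in the old early inputs (median 79.8) and 61.1 to 82.1 CPM in old late inputs (median 74.3). Every old late library was below every young one, whereas the old early libraries overlapped the young. Among all genes, 4.58% had old late inputs that lay wholly below the young. The log2 fold change was -0.28 ± 0.06 (SE; adjusted p in edgeR 0.000389) in old early and -0.37 ± 0.07 (SE; adjusted p in edgeR 7.44e-05) in old late animals.

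Dnmt1, the maintenance methyltransferase, ran from 42.3 to 53.7 CPM in young, 32.2 to 49.5 CPM in old early and 37.5 to 54.6 CPM in old late inputs, with medians of 49.8, 44.6 and 46.0. The ranges overlapped in both comparisons. The fitted log2 change was -0.16 ± 0.06 (SE; adjusted p in edgeR 0.0586) in old early and -0.06 ± 0.07 (SE; adjusted p in edgeR 0.549) in old late animals. The old early value lay close to the threshold and passed it in 13 of 42 alternative settings, with a lowest edgeR adjusted p of 0.0277. These were DESeq2, a fit of only the groups compared, and leaving out young input 5, old early input 1, 3, 4, 10 or 12, or old late input 1, 3, 4, 5 or 7.

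Within a library, the ratio of Dnmt3a to Dnmt1 CPM averaged 1.95 ± 0.12 in young inputs (SD, n = 10) and 1.56 ± 0.10 in old late inputs (SD, n = 7). The ranges, 1.78 to 2.22 and 1.42 to 1.68, did not overlap. In old early inputs the ratio averaged 1.80 ± 0.28 (SD, n = 12), and its range of 1.34 to 2.40 covered both. This ratio was chosen for description and was not tested.

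Dnmt3b, the second de novo enzyme, and Uhrf1, the partner of Dnmt1, were near the limit of detection. Dnmt3b had 5.32 to 25.97 estimated counts per input library and group medians of 0.63 to 0.68 CPM. Uhrf1 had 5.59 to 45 counts and group medians of 1.01 to 1.27 CPM. The 95% confidence intervals of the log2 fold change were wide, from -0.35 to 0.71 for Dnmt3b and from -0.84 to 0.22 for Uhrf1 in the old early comparison. Differences of the size seen in the other members were not detectable at this depth.

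Among the erasers, Tet1 ran from 6.48 to 10.6 CPM in young (median 8.33), 5.25 to 8.93 CPM in old early (median 6.56) and 4.59 to 7.61 CPM in old late inputs (median 6.01). On the log2 scale the difference was -0.33 ± 0.10 (SE; adjusted p in edgeR 0.0124) in old early and -0.48 ± 0.12 (SE; adjusted p in edgeR 0.00157) in old late animals. The groups overlapped. At 28.5%, the decrease of Tet1 in old late animals was the largest among the members called.

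Tet2, which lacks the DNA-binding CXXC domain of Tet1 and Tet3, ran from 28.5 to 39.9 CPM in young (median 33.4), 16.5 to 31.6 CPM in old early (median 28.1) and 18.8 to 30.1 CPM in old late inputs (median 27.8). Its log2 fold change was -0.34 ± 0.09 (SE; adjusted p in edgeR 0.00518) and -0.39 ± 0.11 (SE; adjusted p in edgeR 0.00486) in the same order. The lowest libraries of both old groups were well below the lowest young library, while the highest overlapped it.

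Tet3, the Tet gene with the highest level per length in each group, ran from 50.4 to 63.8 CPM in young (median 54.9), 43.4 to 55.7 CPM in old early (median 49.9) and 39.1 to 55.4 CPM in old late inputs (median 50.6). The fitted log2 change was -0.19 ± 0.05 (SE; adjusted p in edgeR 0.00906) and -0.21 ± 0.06 (SE; adjusted p in edgeR 0.0121). Overlap with the young inputs was seen in both old groups.

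Tdg, which excises oxidised methylcytosine, had the smallest decrease of the 5 members called, and the lowest coefficient of variation of the 8 members in each input group. It ran from 46.98 to 52.7 CPM in young (median 50.3), 41.3 to 50.3 CPM in old early (median 45.6) and 38.2 to 47.3 CPM in old late inputs (median 45.3). On the log2 scale the difference was -0.14 ± 0.04 (SE; adjusted p in edgeR 0.00895) and -0.17 ± 0.05 (SE; adjusted p in edgeR 0.00469). The young libraries varied by a coefficient of variation of 3.93%, and both old groups overlapped them at their upper end.

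**Figure D2:**
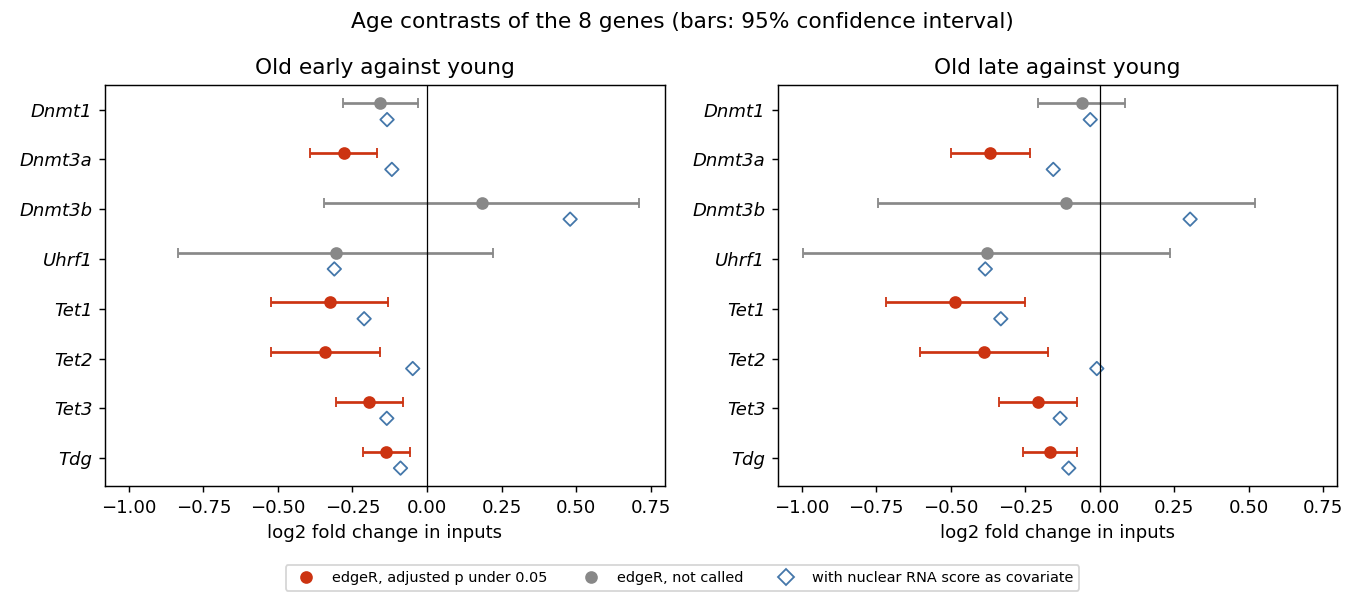
Log2 fold change of the 8 genes in old early (left) and old late (right) inputs against young inputs, with 95% confidence intervals, red where edgeR called the gene. Open diamonds give the log2 fold change with the score of nuclear-retained RNAs as covariate: they lie nearer to 0 than the circles for the 5 called genes in both panels.

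The age differences moved together with the abundance of RNAs that stay in the nucleus. A list of 7 such RNAs (Malat1, Neat1, Meg3, Miat, Rian, Snhg11 and Kcnq1ot1) was chosen after the data were seen, partly because Miat was the gene most like Tet2 across the inputs. Of the 7, 6 were lower and 1, Neat1, was higher in each old group. Their summed level ran from 6989 to 8232 CPM in young, 3235 to 7051 CPM in old early and 4038 to 6064 CPM in old late inputs. The mean log2 CPM of the list, used as a score, was 9.14 ± 0.09 in young, 8.80 ± 0.25 in old early and 8.70 ± 0.19 in old late inputs (SD; n = 10, 12 and 7). All old late inputs were below all young inputs in this score.

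With the score as a covariate, 0 of the 5 age calls held in either old group. Dnmt3a had a log2 fold change of -0.12 (edgeR adjusted p 0.185) in old early and -0.16 (edgeR adjusted p 0.11) in old late animals. Tet2 had -0.05 (edgeR adjusted p 0.786) and -0.01 (edgeR adjusted p 0.963). Tet1 kept more of its difference, at -0.21 (edgeR adjusted p 0.325) and -0.33 (edgeR adjusted p 0.15), as did Tet3 at -0.14 (edgeR adjusted p 0.253) and -0.13 (edgeR adjusted p 0.319) and Tdg at -0.09 (edgeR adjusted p 0.283) and -0.10 (edgeR adjusted p 0.251). Over all genes the calls fell from 3826 to 1078, or 7.21%, and from 5151 to 1696, or 11.3%. With Miat left out of the score, again 0 of the 5 calls held, and Dnmt3a was at -0.13 (edgeR adjusted p 0.129) and -0.18 (edgeR adjusted p 0.0585), with 8.25% and 14% of genes called. The score differs between the ages itself, so this fit cannot tell age apart from the score. Whether the score follows the content of nuclear RNA or the mix of cell types was not tested.

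**Figure D3:**
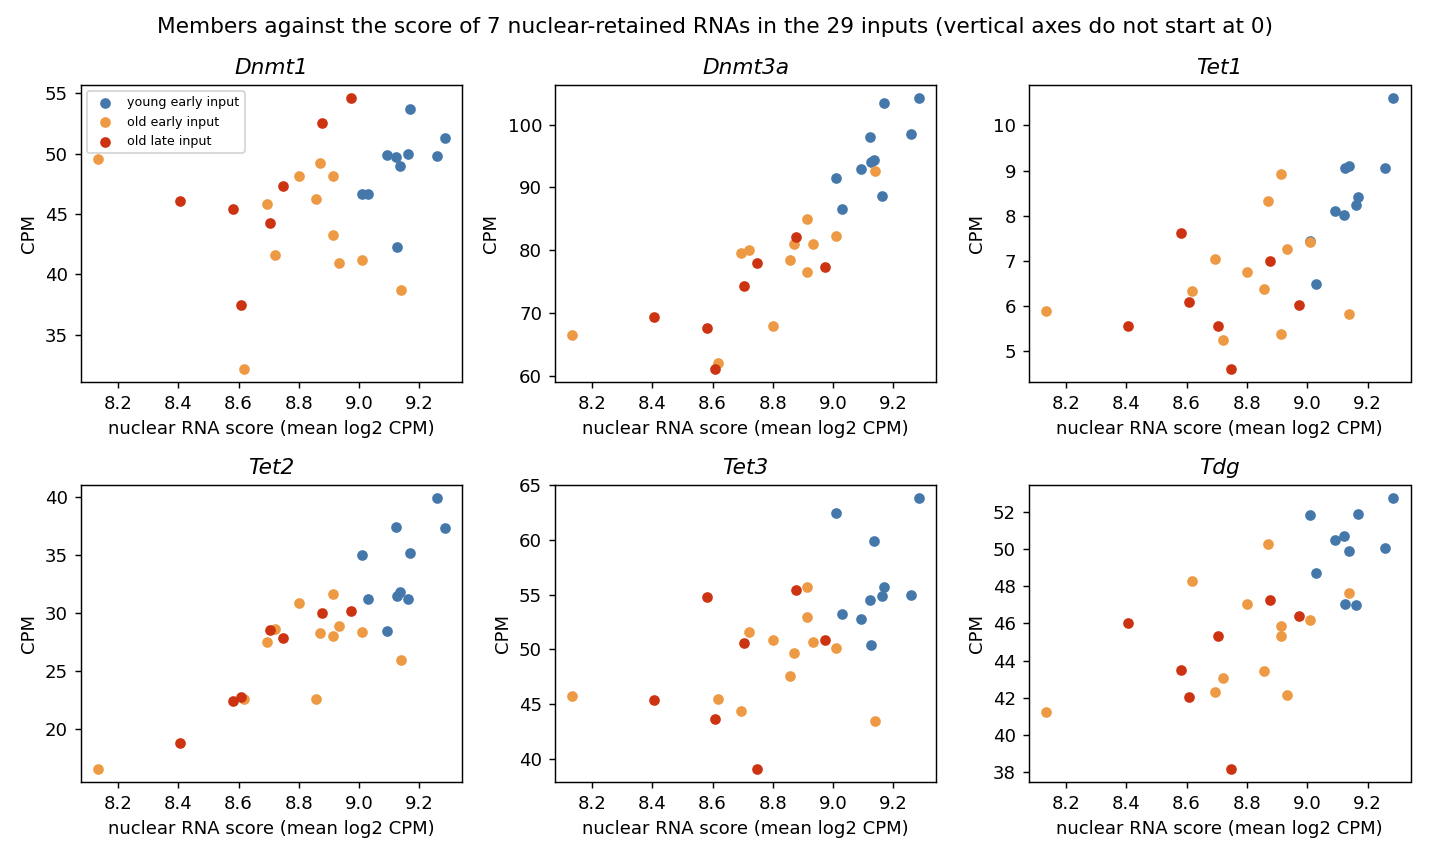
CPM of 6 members against the score of the 7 nuclear-retained RNAs (mean log2 CPM) in the 29 inputs, coloured by group, with vertical axes that do not start at 0. Young inputs lie at scores of 9.01 to 9.29, and 1 old early input lies at 8.13, the lowest score among the inputs, where Dnmt3a and Tet2 are low too.

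Cell type markers also differed between the ages. Of the microglia list, 14 of 15 genes were higher in the old early and 15 of 15 in the old late inputs. Its summed level ran from 567.5 to 672.1 CPM in young, 768.2 to 933.7 CPM in old early and 822.4 to 1196 CPM in old late inputs. Of the oligodendrocyte list, 7 of 9 and 8 of 9 genes were higher. The neuron list had 1 higher and 0 lower of 10 in old early and 0 higher and 3 lower in old late animals, with summed levels of 10600 to 11830 CPM in young, 9671 to 11700 CPM and 10070 to 11020 CPM in the old groups. The astrocyte list had 4 of 9 genes higher and 0 lower in each old group, with summed levels of 3789 to 4224 CPM in young, 4104 to 4948 CPM in old early and 4287 to 5188 CPM in old late inputs. Of the new neuron list, 3 of 6 genes were lower in old early and 1 of 6 in old late inputs, and 0 were higher. Its sums were 101.4 to 124.9, 70.05 to 133.1 and 81.08 to 152.5 CPM in young, old early and old late inputs. Among blood genes 2 of 5 tested were higher in old early and 3 of 5 in old late inputs, with sums of 97.24 to 224.5 CPM in young, 84.67 to 1426 CPM in old early and 184.2 to 451.9 CPM in old late inputs. The mural list had 2 of 6 and the endothelial list 1 of 7 higher in each old group, and 0 lower. Oligodendrocyte precursors had 2 higher and 2 lower of 6 in each. Border macrophage genes had 0 of 7 called in old early and 1 higher and 1 lower in old late inputs. Choroid plexus genes had 0 of 6 called in either, but their sums varied widely between libraries of a group. These sums ran from 48.7 to 3112 CPM in young, 47.4 to 4140 in old early and 48.26 to 3478 in old late inputs. Their medians were 2018, 109.5 and 2031 CPM. Of 10 genes of thalamus and striatum, 1 was lower and 0 higher in each old group. The part of these shifts in the differences of the members was not tested.

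In females alone, 1 of 8 members was called in each age comparison, and it was Dnmt3a, with a log2 fold change of -0.26 (edgeR adjusted p 0.0251) in old early and -0.35 (edgeR adjusted p 0.00275) in old late animals. Fewer genes of any kind were called there too: 1198 (8.06% of 14862) and 2787 (18.8%), against 3826 and 5151 with both sexes. The other 4 genes had edgeR adjusted p-values of 0.141 to 0.297 and of 0.0908 to 0.511 there. A fit of age by sex on the young and old early inputs gave males and females their own age difference. In males it called 6 of 8 members, all lower, where 24.9% of 14547 genes were called. These were the 5 genes called with both sexes and Dnmt1, with edgeR adjusted p-values from 0.00588 (Dnmt1) to 0.0487 (Tdg). In females it called 1 of 8, Dnmt3a (edgeR adjusted p 0.0278), where 7.81% of genes were called. The age difference of Dnmt1 was -0.05 in females and -0.31 in males on the log2 scale. The test of that difference gave -0.26 ± 0.10 (SE; edgeR p 0.0193, adjusted p 0.253). Tet2 had -0.23 in females and -0.48 in males, with a difference of -0.25 ± 0.17 (SE; adjusted p in edgeR 0.451). No member passed the test of the difference, nor did any of 14547 genes in edgeR, of which 2272 had an unadjusted edgeR p under 0.05. The fit by sex was chosen after the data were seen.

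The second comparison asked whether the age at induction left a trace in old animals. Between the old late and the old early inputs, 0 of 8 members were called in edgeR or had an unadjusted p under 0.05, and 0.0334% of 14948 genes (5) were called, with 1736 at an unadjusted p under 0.05. Leaving out 1 library changed this count of genes, to 164 for old early input 5, 76 for old early input 2 and 29 for old early input 10, and to 0 for old late input 2, 3 or 4. In females only it was 182. DESeq2 called 58 genes and 0 of the 5 members to which it gave an adjusted p, which left out Dnmt3b, Uhrf1 and Tet1. The log2 differences of the members ran from -0.30 (Dnmt3b) to 0.10 (Dnmt1), and edgeR adjusted p-values from 0.592 to 0.951. The 95% confidence interval was -0.21 to 0.04 for Dnmt3a, -0.38 to 0.07 for Tet1 and -0.14 to 0.11 for Tet3. A decrease of Dnmt3a past 0.21 on the log2 scale lay outside the interval. This comparison is also the test of the difference between the 2 age comparisons, so no member was shown to differ with age more in the one than in the other.

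Sex was compared over the 29 inputs with group as a term. Again 0 of 8 members were called in edgeR or had an unadjusted p under 0.05, where 0.174% of genes (26) were called, 1632 had an unadjusted p under 0.05 and DESeq2 called 64 genes and 0 members. The log2 differences of males against females ran from -0.15 for Uhrf1 to 0.09 for Dnmt3b, with edgeR adjusted p-values from 0.773 to 0.969. The interval of Dnmt3a was -0.07 to 0.13 and that of Tdg was -0.07 to 0.08.

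The third comparison set RNA on tagged ribosomes against the input of the same old late animals. The writers Dnmt1, Dnmt3a and Dnmt3b and the reader Uhrf1 were higher in TRAP, and the erasers Tet1 and Tet3 were lower. Tet2 and Tdg did not pass the test. In all, 6 of 8 members were called in edgeR, 4 higher and 2 lower, where 59.2% of 14596 genes were called, 30.4% higher and 28.8% lower. That share is near the background and is no result about the members as a group. All member changes were small beside the microglia markers: the highest was 2.50-fold, for Dnmt3b, against 17.1-fold for Cx3cr1.

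Dnmt1 had 47.3, 46.0, 44.2, 45.4, 37.5, 54.6 and 52.5 CPM in the inputs of animals 1 to 7 and 60.2, 58.5, 62.7, 60.8, 55.1, 61.4 and 68.7 CPM in their TRAP libraries. Every TRAP library was above every input, the only member with no overlap, where 19.6% of all genes had TRAP libraries wholly above the inputs. The log2 fold change was 0.38 ± 0.08 (SE; adjusted p in edgeR 0.000367), and TRAP was higher in 7 of 7 animals.

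Dnmt3a ran from 61.1 to 82.1 CPM in input (median 74.3) and 70.5 to 119 CPM in TRAP (median 88.2), with overlap. TRAP was higher in 6 of 7 animals, with a log2 ratio of -0.02 in animal 1 and 0.68 in animal 3. The log2 fold change was 0.28 ± 0.09 (SE; adjusted p in edgeR 0.0125). It depended on the scaling: upper quartile scaling gave 0.14 (edgeR adjusted p 0.15) and library size alone gave 0.17 (edgeR adjusted p 0.0771). These scalings moved the median log2 difference over all genes from -0.02 to -0.17 and -0.13. Relative to that shift Dnmt3a was above the median gene under each.

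Dnmt3b ran from 0.36 to 1.04 CPM in input and 0.95 to 1.98 CPM in TRAP, from 6 to 18.2 and 12 to 34 estimated counts. TRAP was higher in 7 of 7 animals, although the ranges overlapped. Its log2 fold change was 1.32 ± 0.23 (SE; adjusted p in edgeR 9.42e-05). Uhrf1 had 1.13, 0.99, 1.24, 0.61, 0.96, 1.01 and 1.45 CPM in the inputs of animals 1 to 7 and 1.49, 1.90, 4.25, 1.89, 3.85, 1.88 and 0.96 CPM in TRAP. It was higher in 6 of 7 animals and lower in animal 7, with a log2 fold change of 1.09 ± 0.31 (SE; adjusted p in edgeR 0.00609).

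Tet1 ran from 4.59 to 7.61 CPM in input (median 6.01) and 3.42 to 6.14 CPM in TRAP (median 4.33). It was lower in 7 of 7 animals, with overlapping ranges and a log2 fold change of -0.37 ± 0.15 (SE; adjusted p in edgeR 0.0464). The call was lost in 13 of 26 alternative settings, among them leaving out input 2, 4, 5, 6 or 7 or TRAP library 1, 3, 5 or 6, with edgeR adjusted p-values up to 0.101 when 1 library was left out. These fits did not pair the fractions by animal. With the animal as a block in place of sex, Tet1 stayed called, at -0.38 (edgeR adjusted p 0.0148). Tet3 ran from 39.1 to 55.4 CPM in input (median 50.6) and 36.1 to 44.7 CPM in TRAP (median 41.3). It was lower in 7 of 7 animals, with a log2 fold change of -0.27 ± 0.07 (SE; adjusted p in edgeR 0.0017).

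Tet2 had 27.8, 18.8, 28.6, 22.3, 22.7, 30.1 and 30.01 CPM in the inputs and 19.4, 16.5, 26.3, 30.3, 21.8, 22.4 and 31.2 CPM in TRAP of animals 1 to 7. It was lower in 5 and higher in 2 of 7 animals. The log2 fold change was -0.12 ± 0.12 (SE; adjusted p in edgeR 0.39), with a 95% confidence interval of -0.37 to 0.13. Tdg ran from 38.2 to 47.3 CPM in input and 36.3 to 44.5 CPM in TRAP, and was lower in 6 of 7 animals. The fitted log2 change was -0.13 ± 0.06 (SE; adjusted p in edgeR 0.0825), and it was called as lower under upper quartile scaling at -0.28 (edgeR adjusted p 0.00131), under library size alone at -0.24 (edgeR adjusted p 0.00565) and with DESeq2 at -0.15 (DESeq2 adjusted p 0.0498). Both scalings moved the median of all genes down, to -0.17 and -0.13, by about as much as they moved Tdg. It was also called without input 1 (edgeR adjusted p 0.0231) or TRAP library 6 (edgeR adjusted p 0.0461).

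**Figure D4:**
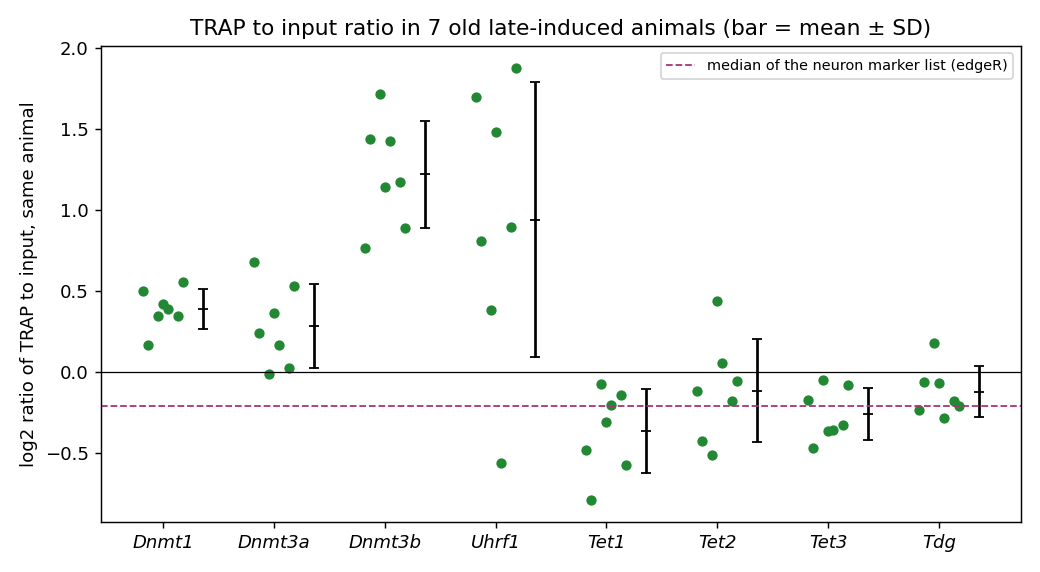
Log2 ratio of TRAP to input CPM in each of 7 old late animals for the 8 genes, with points for animals, bars for the mean ± SD and a dashed line at the median log2 fold change of the neuron marker list (-0.21). All points of Dnmt1 and Dnmt3b are above 0, all points of Tet1 and Tet3 are below it, and those of Uhrf1 spread from -0.56 to 1.88.

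Several other markers moved between the fractions. The border macrophage list was higher in TRAP in 7 of 7 genes (median log2 fold change 3.81) and the endothelial list in 7 of 7 (1.23). The oligodendrocyte list was lower in 9 of 9 (-1.33), the astrocyte list in 8 of 9 (-0.44) and the neuron list in 6 of 10 (-0.21). Summed neuron markers were still at 8210 to 9826 CPM in TRAP, against 10070 to 11020 CPM in input, so neuronal RNA was abundant in the pulldown. Of the 7 nuclear-retained RNAs, 6 were lower in TRAP (median -0.84). With their score as covariate, 1 of 8 members was called, Dnmt1 at 0.63 (edgeR adjusted p 0.00474), and with Miat left out of the score Dnmt3b was called too, at 1.29 (edgeR adjusted p 0.0477). Over all genes the calls fell from 8640 to 4170 with the score and to 4178 without Miat, or 28.6% each. The scores did not overlap between the fractions, at 8.41 to 8.97 in input and 7.57 to 8.38 in TRAP, so that this fit cannot tell them apart. The part of other cell types in the values of the members was not tested.

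Per kilobase, Tdg at 11.6 ± 0.82, Dnmt1 at 10.4 ± 0.71 and Dnmt3a at 9.22 ± 1.58 CPM overlapped as neighbours in TRAP (SD, n = 7). Tet3 at 3.70 ± 0.31 and Tet2 at 2.61 ± 0.60 CPM per kilobase came below them and overlapped each other, whereas they were apart in the input. Uhrf1 at 0.65 ± 0.34, Dnmt3b at 0.35 ± 0.09 and Tet1 at 0.33 ± 0.07 CPM per kilobase were lowest. Tet1 was thus last of the 8 in TRAP but sixth in the inputs, in a stretch of the order where neighbours overlapped.

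Around the members, 61 further genes in 4 lists cover methyl-CpG readers, partners of the writers, partners of the Tet enzymes with repair of oxidised cytosine, and methyl donor and oxoglutarate metabolism. In the old early inputs 58 of them were tested, of which 7 were higher, 17 lower and 34 not called, or 41.4% called, against 25.6% of all genes. In the old late inputs 6 were higher, 21 lower and 31 not called, or 46.6%, against 34.5% of all genes. Their median log2 difference was -0.10 and -0.11. In TRAP, 23 were higher, 12 lower and 22 not called of 57, or 61.4%, against 59.2% of all genes. The lists too were chosen with earlier results of these data known, so these shares do not test them as sets.

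The reader list held 11 genes. In old early inputs 3 were lower and 0 higher, and in old late inputs 5 were lower and 1 higher. Mbd6, a protein with a methyl-CpG-binding-like domain, averaged 43.5 ± 4.51 CPM in young, 30.8 ± 5.40 in old early and 29.7 ± 4.37 in old late inputs (SD; n = 10, 12 and 7). It fell by 0.48 (edgeR adjusted p 0.000171) and 0.52 on the log2 scale (edgeR adjusted p 0.000296). In TRAP 5 readers were higher and 0 lower, among them Mbd6 by 0.65 (edgeR adjusted p 9.23e-05) and Zbtb4 by 0.36 on the log2 scale (edgeR adjusted p 1.68e-05).

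Among partners of the writers, 6 of 14 were lower and 1 higher in old early inputs, and 7 were lower and 0 higher in old late inputs. Zfp57, a zinc finger protein that holds methylation at imprinted regions, averaged 6.88 ± 1.14 CPM in young, 4.17 ± 1.50 in old early and 3.16 ± 0.70 in old late inputs (SD; n = 10, 12 and 7). On the log2 scale the difference was -0.70 (edgeR adjusted p 0.00106) and -1.05 (edgeR adjusted p 6.85e-05), the largest decreases in the 4 lists. In TRAP 8 were higher and 1, Zfp57, was lower (-0.73, edgeR adjusted p 0.00521). Cdca7, a partner of the chromatin remodeller Hells, averaged 2.82 ± 0.82 CPM in input against 8.29 ± 2.06 in the TRAP libraries (SD; n = 7 each), a log2 fold change of 1.54 (edgeR adjusted p 4.28e-06).

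Among partners of the Tet enzymes and repair genes, 3 of 15 were higher and 4 lower in old early inputs, and 2 were higher and 5 lower in old late inputs. Parp1, which senses DNA breaks, averaged 148.8 ± 6.57 CPM in young, 120.5 ± 15.01 in old early and 115.8 ± 5.24 in old late inputs (SD; n = 10, 12 and 7). Its log2 fold change was -0.30 (edgeR adjusted p 5.26e-05) and -0.36 (edgeR adjusted p 2.49e-05). Gadd45a, linked to active demethylation, was higher, at 0.25 (edgeR adjusted p 0.0224) and 0.46 (edgeR adjusted p 0.000323). Cxxc4 and Cxxc5, CXXC proteins that bind and regulate Tet2, went apart in TRAP, with log2 fold changes of -0.64 (edgeR adjusted p 3.78e-06) and 0.68 (edgeR adjusted p 1.31e-08).

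In methyl donor and oxoglutarate metabolism, 3 of 18 genes were higher and 4 lower in each old group. Mat2a, the catalytic enzyme that makes S-adenosylmethionine, averaged 169.9 ± 6.65 CPM in young, 137.4 ± 10.7 in old early and 142.6 ± 5.18 in old late inputs (SD; n = 10, 12 and 7). The fitted log2 change was -0.30 (edgeR adjusted p 3.32e-07) and -0.25 (edgeR adjusted p 3.71e-05), while its regulatory subunit gene Mat2b was higher by 0.13 (edgeR adjusted p 0.0174) and 0.12 (edgeR adjusted p 0.042). In TRAP 4 of 17 were higher and 6 lower, with methionine synthase, Mtr, at 8.21 ± 1.16 CPM in input against 21.4 ± 4.08 in the TRAP libraries (SD; n = 7 each; a log2 change of 1.37, edgeR adjusted p 1.2e-08).

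Uhrf1 and Dnmt1 are known to be expressed in dividing cells, so a list of 15 proliferation genes was set beside them. In TRAP 10 of 14 were higher and 0 lower, where 30.4% of all genes were higher. Mcm3, a helicase subunit of DNA replication, rose most. It averaged 3.53 ± 0.99 CPM in input against 29.9 ± 9.84 in the TRAP libraries (SD; n = 7 each). On the log2 scale its difference was 3.07 (edgeR adjusted p 8.01e-11). Cdk1 averaged 0.29 ± 0.26 CPM in input against 2.09 ± 1.57 in TRAP (SD; n = 7 each). Top2a averaged 0.94 ± 0.56 against 4.81 ± 3.33 CPM (SD; n = 7 each). Their log2 differences were 2.86 (edgeR adjusted p 0.000129) and 2.28 (edgeR adjusted p 0.000157), from few counts in input. Some others differed far less. Mcm2 averaged 5.94 ± 1.13 CPM in input against 9.98 ± 2.68 in TRAP (SD; n = 7 each). Mki67 averaged 1.40 ± 0.28 against 1.76 ± 0.99 CPM (SD; n = 7 each). The part of cell division in the values of Dnmt1 and Uhrf1 was not tested. The summed list ran from 105.2 to 125.5 CPM in input and 166.7 to 258.8 CPM in TRAP. In the old early inputs 5 of the list were lower and 1 higher, and in the old late inputs 4 were lower and 1 higher.

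Across the 29 inputs the members were compared with all genes tested by the correlation of log2 CPM, as a description over libraries that share groups. Dnmt3a was most like E130003G02Rik (Pearson r 0.93, Spearman rho 0.92) and Zmym6 (r 0.93, rho 0.95), and Tet2 was most like Miat (r 0.88, rho 0.81) and Trank1 (r 0.87, rho 0.88). Dnmt1 was most like Lrp1 (r 0.89, rho 0.80), Tet3 like Zbtb16 (r 0.84, rho 0.81), Tdg like Fam120a (r 0.78, rho 0.80) and Tet1 like Son (r 0.77, rho 0.78). With the means of group and sex removed, r was 0.82 for Dnmt3a with E130003G02Rik, 0.81 for Tet2 with Miat and 0.86 for Dnmt1 with Lrp1, but 0.48 for Tet1 with Son and 0.50 for Tdg with Fam120a. For Dnmt3b (Oas2, r 0.59) and Uhrf1 (Chrnb1, r 0.60) the likeness was weak and rests on few counts. Among the members themselves the most alike were Dnmt3a and Tet2 (r 0.78, or 0.60 within group and sex) and Tet3 and Tdg (r 0.70, or 0.48).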

How the data were processed

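The values are estimated counts that the authors deposited for each gene of 36 libraries in columns headed raw, per the file headers. Of its nonzero values, 77.4% were not whole. The submitters' processing notes name mm10 and DESeq2; aligner, counting tool and strand handling are not given in the sources used here. Libraries were grouped by age, induction age, fraction and sex from the labels, and fractions were paired by the animal number there.

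Counts were rounded and tested with edgeR 4.0.16 in R 4.3.3 (filterByExpr, minimum count 10, TMM, quasi-likelihood test) over all genes. TRAP was fitted on 14 libraries with sex, and the age, induction and sex contrasts on 29 inputs with group and sex. Standard errors come from the F statistic, and intervals are at 95%. CPM used TMM factors over all 36 libraries, and log2 CPM a prior count of 2.

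Within animals, deviations of TRAP and input from their group means correlated at 0.302 to 0.471 in 7 pairs, against a median of -0.089 between animals. Counts were also simulated with 200 genes changed. Of those changed by 1 on the log2 scale, 94% (TRAP), 99% (old early) and 94% (old late) were recovered. Of those changed by 0.3, 28%, 68% and 48% were recovered. Far more genes were called in the data, which alters the cut-off for adjusted p, so these shares need not hold there.

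The members and lists were chosen with earlier results of these data known. Named list genes were up to 3 largest increases and decreases among calls whose mean log2 CPM was over 0, and likeness took the 3 highest correlations. The values of 1 list gene are left out of the text. Of 184 list genes 181 were matched. Alternatives were other scalings, filters, tools (DESeq2 1.42.0, limma 3.58.1 voom), females only, fewer groups, an animal block and each library left out.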

Additional observations from a re-analysis of the deposited data

How the results depend on the processing

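Of 1504 member values with an adjusted p under alternatives, 1398 kept their direction and side of the threshold, 68 crossed it and 38 changed sign, all of the last uncalled. The 5 age calls of members held in both contrasts whichever library was left out. Members called without 1 library ran from 5 to 7 in TRAP, 5 to 6 in old early against young (Dnmt1 joined) and stayed at 5 in old late against young, and at 0 for induction age and sex. Genes called ran from 8150 to 8720, 3294 to 4011, 4352 to 5393, 0 to 164 (164 without old early input 5) and 17 to 32 in that order of contrasts. In females only, genes called were 1198 (old early), 2787 (old late) and 182 (induction), with 1 member in each age contrast. With the nuclear RNA score they were 4170 (TRAP, 1 member), 1078 and 1696 (0 members each) and 1 (induction). Without Miat in the score they were 4178 (TRAP, 2 members), 1233 and 2098 (0 members each). For induction age, DESeq2 called 58, voom 3, a fit of only the groups compared 0, and 340 were called without old early inputs 5 and 10, the latter left out after the data were seen. For sex, DESeq2 called 64 and the early-induced groups alone 12. Upper quartile scaling split the calls 2351 higher to 1610 lower (old early; 1940 to 1886 with TMM), 3015 to 2302 (old late; 2536 to 2615) and 3280 to 6372 (TRAP; 4442 to 4198), and library size alone gave 3564 to 5748 in TRAP.

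Sign changes, as log2 fold changes, were these. In females only Dnmt3b was -0.074 (old early), 0.07 (old late) and 0.143 (induction), Tet3 0.049 and Tdg 0.005 (induction). With the nuclear RNA score Tet2 was 0.429 (TRAP) and 0.038 (induction), Dnmt3b 0.303 (old late) and Tet3 0.002 (induction). Without Miat, Tet2 was 0.393 (TRAP) and 0.021 (induction) and Dnmt3b 0.304 (old late). Voom gave Uhrf1 0.037 (induction). The early-induced groups alone gave Tet1 0.015, Tet2 0.021 and Tet3 0.031 (sex). With 1 library left out, Dnmt3b ran from -0.007 to 0.299 (old early), -0.291 to 0.022 (old late) and -0.09 to 0.176 (sex). For induction age, Uhrf1 ran from -0.16 to 0.026, Tet2 from -0.103 to 0.024, Tet3 from -0.046 to 0.037 and Tdg from -0.047 to 0.007. For sex, Tet2 ran from -0.057 to 0.027, Tet3 from -0.047 to 0.008 and Tdg from -0.005 to 0.033. The cause was not tested. The replicate block by animal changed no call of a member (6 members, 9330 genes).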
